A study of Mus musculus with 20 samples.

Results

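The 38 genes described here encode the machinery with which the endoplasmic reticulum (ER) imports, folds and N-glycosylates secreted and membrane proteins, and disposes of those that fail. They were taken by gene symbol from a list of ER chaperones, ER-associated degradation factors, sugar nucleotide and N-glycan enzymes and translocon subunits, and all 38 were found among the 24421 gene symbols of the count table. They were measured by RNA sequencing of mouse kidney in 4 groups of 5 libraries: Fh1-/- and Fh1+/+ at day 5, and Fh1-/- and Fh1+/+ at day 10 after tamoxifen. Fh1 encodes fumarate hydratase, the enzyme that turns fumarate into malate.

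All mice were of the strain mixed C57BL/6 129/SvJ and carried Cre-ERT2, a recombinase activated by tamoxifen, under the ROSA26 promoter, which is active in nearly all cell types. The Fh1-/- mice were homozygous for an Fh1 allele with loxP sites around exons 3 and 4. Their Fh1+/+ littermates lacked that allele but had the same Cre-ERT2. Both genotypes were injected intraperitoneally with tamoxifen at 12 weeks of age, 3 times at 2 mg, every other day, so the controls share the Cre and the drug and recombination was not limited to 1 kidney cell type. The labels do not name animals, and the spread behind each p-value is that between libraries, which may be technical.

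The ER receives new proteins through the Sec61 channel, and the oligosaccharyltransferase attaches a preassembled sugar tree to asparagine residues as they enter. Chaperones of the Hsp70 and Hsp90 families, the lectins calnexin and calreticulin and the protein disulfide isomerases then fold them, while hopeless cases are ubiquitinated and returned to the cytosol. When unfolded proteins build up, the sensors ATF6, IRE1 and PERK start the unfolded protein response. Activated IRE1 splices the mRNA of Xbp1, and the resulting factor, together with ATF6, switches on chaperone and degradation genes. Proximal tubule cells, the most abundant cells of the kidney cortex, carry a large load of membrane transporters and endocytic receptors made this way.

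The promoter sequences are shown first, because several of these genes share an element. The list holds chaperone and degradation genes, the kinds that ATF6 and XBP1 are known to switch on. The share of the element is therefore a description and was not independent of the choice of the list. ATF6 and XBP1 are known to act through the ER stress element, CCAAT followed after 9 bases by CCACG, which was searched on both strands of RefSeq promoter windows (build GRCm38.p6, from 250 bases before to 50 bases after each start site). Of the 38 genes, 32 had a window, and 9 of those (28.1%) held the element, against 37 of 27025 genes (0.137%) in the whole promoter table and 29 of the 17224 (0.168%) that also had a row of counts. The 6 genes without a window were Atf6, Hyou1, Lman1, Manf, Ostc and Sec61a1. Each site is printed 5′ to 3′ on the strand that reads CCAAT first, with both motif blocks in capitals and 5 bases on either side.
Hspa5, chr2:34772020-34772048, plus strand: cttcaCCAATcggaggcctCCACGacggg
Hsp90b1 distal site, chr10:86705633-86705661, minus strand: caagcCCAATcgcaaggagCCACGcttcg
Hsp90b1 proximal site, chr10:86705528-86705556, plus strand: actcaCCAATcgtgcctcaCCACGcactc
Dnajc3, chr14:118937822-118937850, plus strand: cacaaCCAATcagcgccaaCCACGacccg
Calr, chr8:84847070-84847098, plus strand: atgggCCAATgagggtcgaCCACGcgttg
Canx, chr11:50325795-50325823, minus strand: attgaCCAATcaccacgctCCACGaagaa
Pdia6, chr12:17266486-17266514, plus strand: agagaCCAATgaaaggcggCCACGgcgtg
Syvn1, chr19:6046527-6046555, plus strand: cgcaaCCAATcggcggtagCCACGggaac
Creld2 and Alg12, shared, chr15:88819515-88819543, minus strand: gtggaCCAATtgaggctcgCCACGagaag

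The related ER stress element II, ATTGG followed after 1 base by CCACG, was found in the windows of Herpud1 and Dnajb11, which is 2 of 32 genes (6.25%) against 12 of 27025 (0.0444%). It is the form in which the 2 blocks lie side by side, shown here with the same capitals.
Herpud1, chr8:94386372-94386392, plus strand: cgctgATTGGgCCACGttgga
Dnajb11, chr16:22857847-22857867, plus strand: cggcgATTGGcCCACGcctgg
The unfolded protein response element, TGACG followed directly by TGG, was in none of the 32 windows and in 0.714% of all windows. The C/EBP-ATF response element, TGATG followed after 1 base by AAT, was also in none of the 32 and in 1.08% of all. A match is a description of the letters and not a site of binding, and no match says only that these letters are not in the window.

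**Figure D1:**
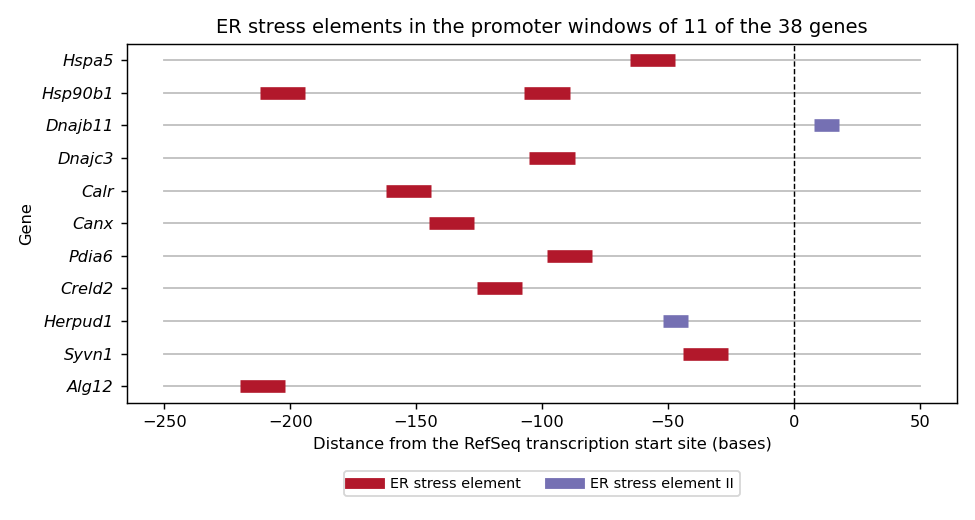
Positions of the ER stress element (red) and the ER stress element II (violet) in the 11 windows that hold one, as distance in bases from the RefSeq start site (dashed line), each grey line being a window of 250 bases before to 50 bases after the start. Apart from the Dnajb11 site, which lies 8 to 18 bases after the start, every site lies before it, and the Syvn1 and Herpud1 sites are the nearest to it.

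Creld2 and Alg12 are neighbours on chromosome 15 that are transcribed away from each other, with start sites 327 bases apart, and the single ER stress element between them lies 108 to 126 bases before the start of Creld2 and 202 to 220 bases before that of Alg12. CRELD2 is an ER protein with EGF-like repeats, and ALG12 adds a mannose to the sugar tree before its transfer to protein. The stretch between them that holds the site overlaps no annotated exon and is printed on the plus strand, where the element reads in reverse, CCACG as CGTGG and CCAAT as ATTGG (capitals).
Creld2 and Alg12 intergenic stretch, chr15:88819396-88819645, plus strand: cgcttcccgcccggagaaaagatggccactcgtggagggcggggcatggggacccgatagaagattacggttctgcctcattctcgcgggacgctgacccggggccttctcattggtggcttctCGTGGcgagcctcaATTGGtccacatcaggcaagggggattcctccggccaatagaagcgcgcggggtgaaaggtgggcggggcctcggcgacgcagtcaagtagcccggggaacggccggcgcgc

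Library totals ranged from 16654829 to 25001294 counts, with a median of 18547503. Fh1 itself, counted over the whole gene, was at 249 to 421 CPM (counts scaled to library size with TMM factors) in Fh1-/- and 224 to 258 in Fh1+/+ libraries at day 10, and at 199.7 to 239 and 219 to 265 at day 5. Whole-gene counts take in exons outside the excised pair, so they do not check the genotype, which stands here as labelled. Fh1-/- day 10 libraries 1 and 3 stood apart, at 125 and 128 on a principal component that held 42.7% of the variance, while the other 18 libraries lay between -31.4 and 30.2. Day 10 results are therefore given with and without both. In these 2 libraries the summed level of 5 injured tubule markers (Havcr1, Lcn2, Spp1, Krt20, Vcam1) was 133313 and 126092 CPM, against 2726 to 13319.9 in the other Fh1-/- and 827 to 2039.9 in the Fh1+/+ libraries of day 10. That of 7 proximal tubule markers was 9330.3 and 8858 CPM, against 18764 to 26595 and 22839 to 64503. At day 10, Fh1-/- libraries 1, 3 and 5 and Fh1+/+ libraries 2 and 3 had no Y-linked transcripts. Those 2 Fh1+/+ libraries were at 22839 and 25825 CPM, against 43074 to 64503 in the 3 with such transcripts. Fh1-/- library 5 was at 19850.1 CPM. The part of this difference in the proximal tubule levels was not tested. All 7 proximal tubule markers were detected in every group, as the kidney label requires. A sum is led by its most abundant genes. Taken singly, the 7 had log2 fold changes from -3.05 to -0.39 at day 10, with a median of -0.64, and -0.5 without libraries 1 and 3. With all libraries, 1 of the 7 was lower at unadjusted p under 0.05 in edgeR, against 11.9% of all genes, and 0 at adjusted p under 0.05. In pieces of tissue, fewer cells of a type and less RNA per cell cannot be told apart.

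The 38 genes were expressed in every library, from 99 to 30594 counts, and together took 0.721% to 0.973% of all counts. Compared per kilobase of exon, P4hb, the classical protein disulfide isomerase, had the highest level in Fh1+/+ kidney at day 5 (390.2 ± 35.4 CPM per kb, SD, n = 5), followed by Calr (263 ± 21.6) and Pdia3 (159 ± 8.29). Gne, which makes the precursor of sialic acid, was the lowest at 6.11 ± 0.532, and it differed from its neighbours in the order, Gfpt1 (6.28 ± 0.131) and Alg12 (6.37 ± 0.724), by less than these SDs. The spread between libraries differed by group. The median coefficient of variation over the 38 genes was 8.18% in both day 5 groups and 10.1% in Fh1+/+ at day 10, but 25.5% in Fh1-/- at day 10.

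**Figure D2:**
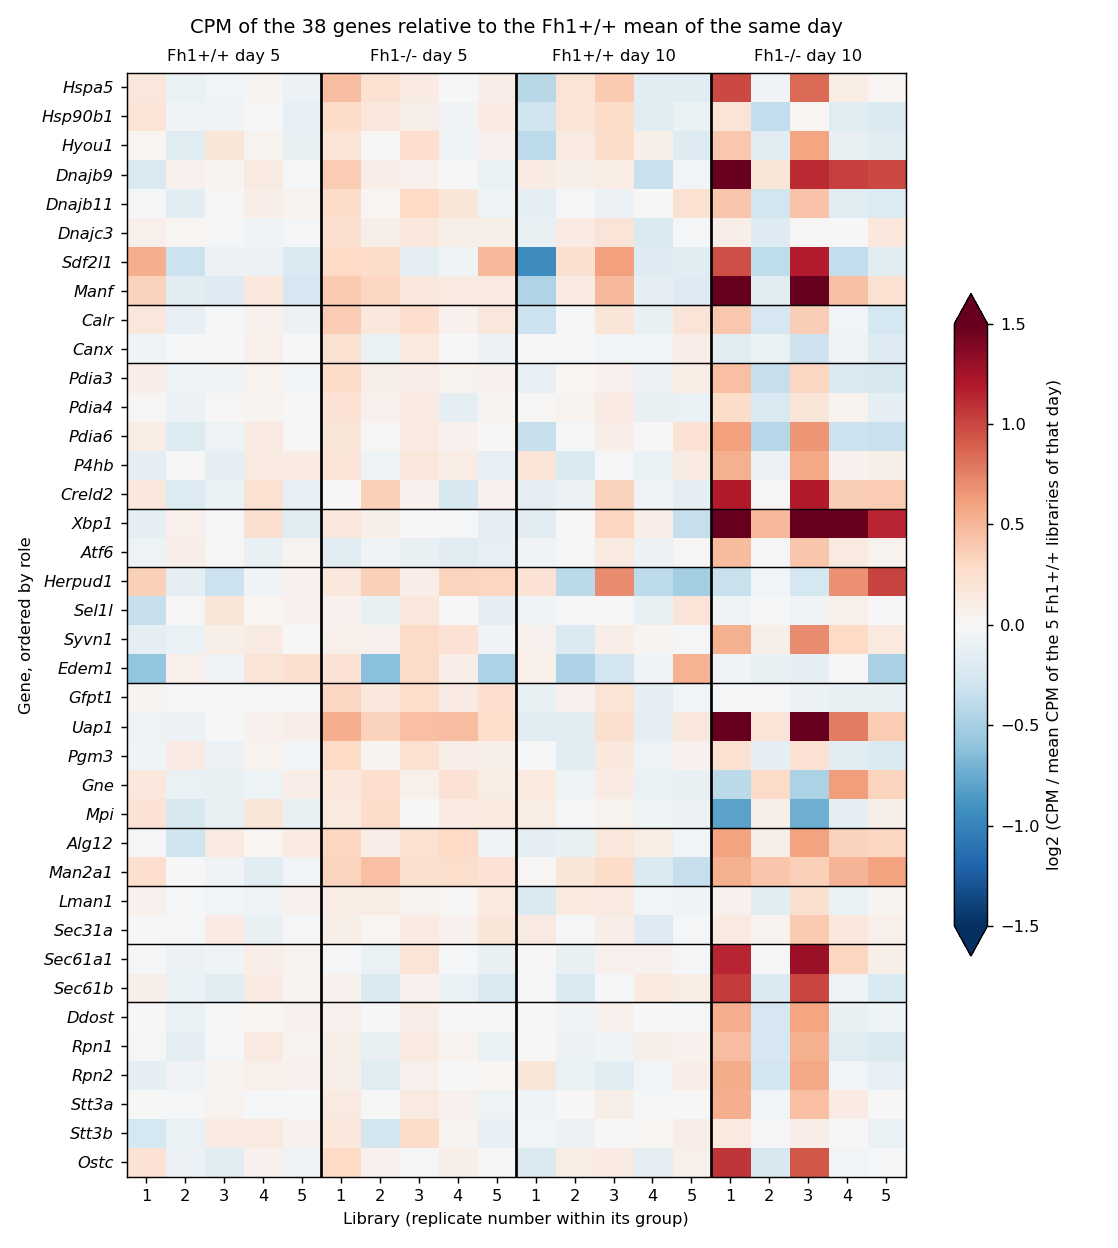
Heat map of the 38 genes (rows, ordered by role, black lines between roles) in 20 libraries (columns), coloured by the log2 ratio of the CPM to the mean CPM of the 5 Fh1+/+ libraries of the same day, with colours saturating at 1.5 in either direction. Red fills most rows in Fh1-/- day 10 libraries 1 and 3, Xbp1, Dnajb9 and Man2a1 lie above that mean in all 5 Fh1-/- day 10 libraries, and Gne, Mpi and Herpud1 are blue in libraries 1 and 3.

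Day 10 asks what an established loss of Fh1 did to these genes. Xbp1, the transcription factor of the response, and Dnajb9, a co-chaperone of BiP, were higher in every Fh1-/- library than in every Fh1+/+ library, and so was Man2a1, the Golgi mannosidase that trims N-glycans. Canx, the lectin chaperone calnexin, was lower in every Fh1-/- library, by a small margin. For the other 34 genes, the oligosaccharyltransferase subunits and disulfide isomerases among them, the genotypes overlapped. Counts of reads were compared with edgeR's quasi-likelihood test over 14360 genes, with Benjamini-Hochberg adjustment. Under its thresholds (adjusted p under 0.01 and an absolute log2 fold change over 0.58), 0 of the 38 genes were called, against 0.0557% of all genes. At adjusted p under 0.05 without a fold threshold the count was 2 (Xbp1 and Dnajb9, both higher; 2.83% of all genes), and at unadjusted p under 0.05 it was 9 higher and 0 lower, against 15.1% and 11.9% of all genes. DESeq2, under the first thresholds, called 3 (Xbp1, Dnajb9 and Uap1; 5.54% of all genes). The median log2 fold change of the 38 was 0.16, with 31 above 0, and that of all genes was -0.00. Without libraries 1 and 3 the median was -0.02, with 18 above 0, and edgeR left 0 of the 38 at adjusted p under 0.05, against 0.481% of all genes, with 5 higher and 3 lower at unadjusted p under 0.05, against 10.8% and 8.33% of all genes. DESeq2 without those libraries called 2 under the stricter thresholds (Xbp1 and Dnajb9; 2.76% of all genes). When single libraries were left out in turn, the 2 genes at adjusted p under 0.05 became 6 without Fh1-/- library 2, which also brought Xbp1 and Dnajb9 past the stricter thresholds, stayed 2 without Fh1-/- library 5 and became 0 without any of the other 8.

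The 3 genes with all Fh1-/- libraries above all Fh1+/+ libraries compare with 4.42% of all genes, and the 1 gene with all of them below, Canx, with 3.43% of all genes. Counted library by library, Fh1-/- libraries 1 and 3 each lay above all 5 Fh1+/+ libraries for 28 of the 38 genes (73.7%, against 35.6% and 35.8% of all genes tested) and below all of them for 3 (7.89%, against 36.0% and 36.6%). Library 4 lay above for 11 and library 5 for 10 (28.9% and 26.3%, against 28.2% and 23.7%). Library 2 lay above for 4 and below for 10 (10.5% and 26.3%, against 2442 and 2437 of all 14360 genes).

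**Figure D3:**
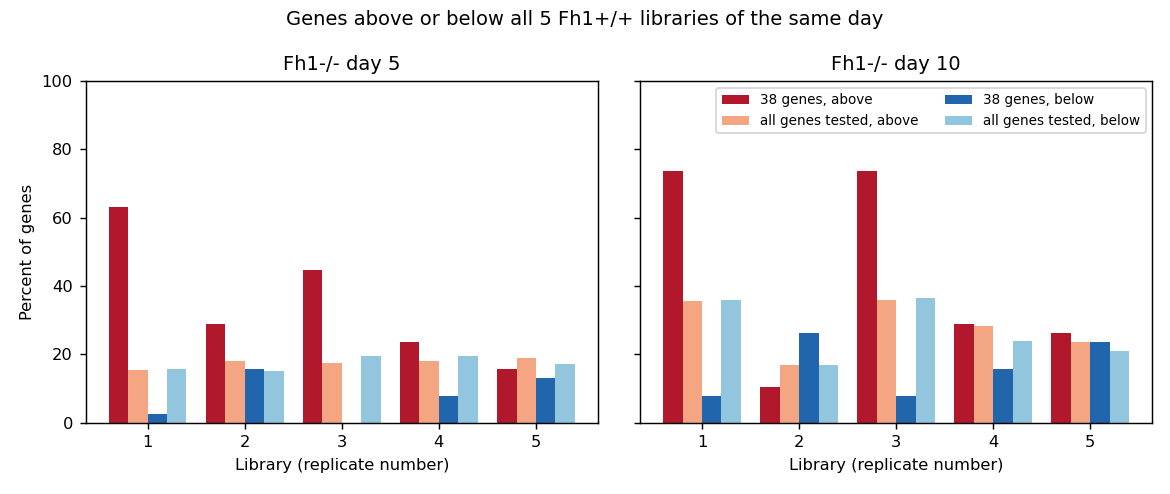
Percent of genes whose CPM in a given Fh1-/- library (x axis, replicate number) lay above (red) or below (blue) all 5 Fh1+/+ libraries of the same day, with dark bars for the 38 genes and light bars for all genes tested. At day 10 the dark red bars of libraries 1 and 3 reach 73.7%, and at day 5 library 1 reaches 63.2% while its light bar stays at 15.5%.

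Xbp1 encodes the factor whose mRNA is spliced by IRE1, and gene counts do not separate its spliced from its unspliced form. At day 10 its level was 1514, 264, 1479.8, 760.2 and 417 CPM in Fh1-/- libraries 1 to 5, against 168, 188, 237, 202 and 149 in Fh1+/+. All 5 Fh1-/- libraries were above all controls, library 2 by the smallest margin and libraries 1 and 3 by the largest. The means were 887 ± 585 and 189 ± 33.7 CPM (SD over 5 libraries). The log2 fold change was 2.22 ± 0.45 (SE), with an edgeR adjusted p of 0.0379. Without libraries 1 and 3 it was 1.34 ± 0.29 with an adjusted p of 0.0821. At day 5 the genotypes overlapped, with 203, 193, 183, 179 and 166 CPM in Fh1-/- and 164, 192, 178, 215 and 160.3 in Fh1+/+.

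ATF6 is the ER membrane sensor that is cut in the Golgi to release a transcription factor. Atf6 was at 96.5, 68.2, 92.3, 75.9 and 71.8 CPM in Fh1-/- and 66.7, 68.2, 76.4, 65.5 and 70.0 in Fh1+/+ at day 10, so that libraries 1 and 3 alone were above the controls. The log2 fold change was 0.21 ± 0.12 (edgeR adjusted p = 0.265). At day 5 the Fh1-/- values of 61.9, 66.6, 64.9, 62.4 and 64.2 stood against Fh1+/+ values of 66.0, 75.1, 70.7, 64.8 and 72.7, and 3 of the 5 were below all controls. That difference, a log2 fold change of -0.13 ± 0.06, had an edgeR p of 0.046 before adjustment and 1 after it. Atf6 and Uap1 are the 2 of the 38 genes on chromosome 1, the chromosome of Fh1, at 4.73 and 5.43 Mb from it. The mice were of mixed strain, and the part of DNA inherited together with the Fh1 allele in the values of these genes was not tested.

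Among the ER chaperones and co-chaperones, 7 of 8 had a log2 fold change above 0 at day 10, with a median of 0.27, and 3 of 8 without libraries 1 and 3. Dnajb9, a J-domain partner of BiP that is known as a target of XBP1, was at 115, 46.7, 89.4, 83.8 and 81.9 CPM in Fh1-/- and 44.7, 43.7, 44.5, 32.7 and 39.8 in Fh1+/+. Here libraries 4 and 5 were nearly as high as library 3, and library 2 was barely above the controls. The log2 fold change was 1.01 ± 0.21 (edgeR adjusted p = 0.0381), and 0.78 ± 0.19 without libraries 1 and 3 (adjusted p = 0.0999). At day 5 Dnajb9 was at 52.5, 43.0, 42.0, 40.5 and 37.6 CPM in Fh1-/- and 34.4, 42.1, 41.3, 44.1 and 39.3 in Fh1+/+, with the groups overlapping.

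Hspa5 encodes BiP, the Hsp70 of the ER and the usual readout of the unfolded protein response. Its level at day 10 was 968, 470.2, 881, 527 and 498 CPM in Fh1-/- and 367, 566, 641, 436 and 436 in Fh1+/+. Only libraries 1 and 3 exceeded the controls, and the log2 fold change of 0.44 ± 0.25 had an edgeR adjusted p of 0.274. Without those libraries it was 0.02 ± 0.18. At day 5 Hspa5 was at 667, 567, 528, 484 and 516 CPM in Fh1-/- and 544, 452, 469, 499 and 453 in Fh1+/+, again with overlap.

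Manf, a small ER protein that binds BiP and is secreted under stress, split the day 10 group more sharply. It was at 152, 40.3, 153, 61.7 and 53.2 CPM in Fh1-/- and at 33.2, 49.7, 63.9, 41.1 and 39.8 in Fh1+/+. The other 3 Fh1-/- libraries lay inside the control range, and the log2 fold change of 1.00 ± 0.38 (edgeR adjusted p = 0.135) became 0.18 ± 0.21 without libraries 1 and 3. Manf was at 54.7, 51.7, 47.1, 45.7 and 45.8 CPM in Fh1-/- at day 5 and at 53.0, 37.5, 36.4, 46.7 and 35.2 in Fh1+/+, with overlap. The remaining chaperones had log2 fold changes from -0.11 (Hsp90b1, the ER member of the Hsp90 family) to 0.40 (Sdf2l1, a partner of Dnajb11), with Hyou1, an Hsp70-like exchange factor, at 0.13, Dnajb11 at 0.06 and Dnajc3 at 0.01.

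**Figure D4:**
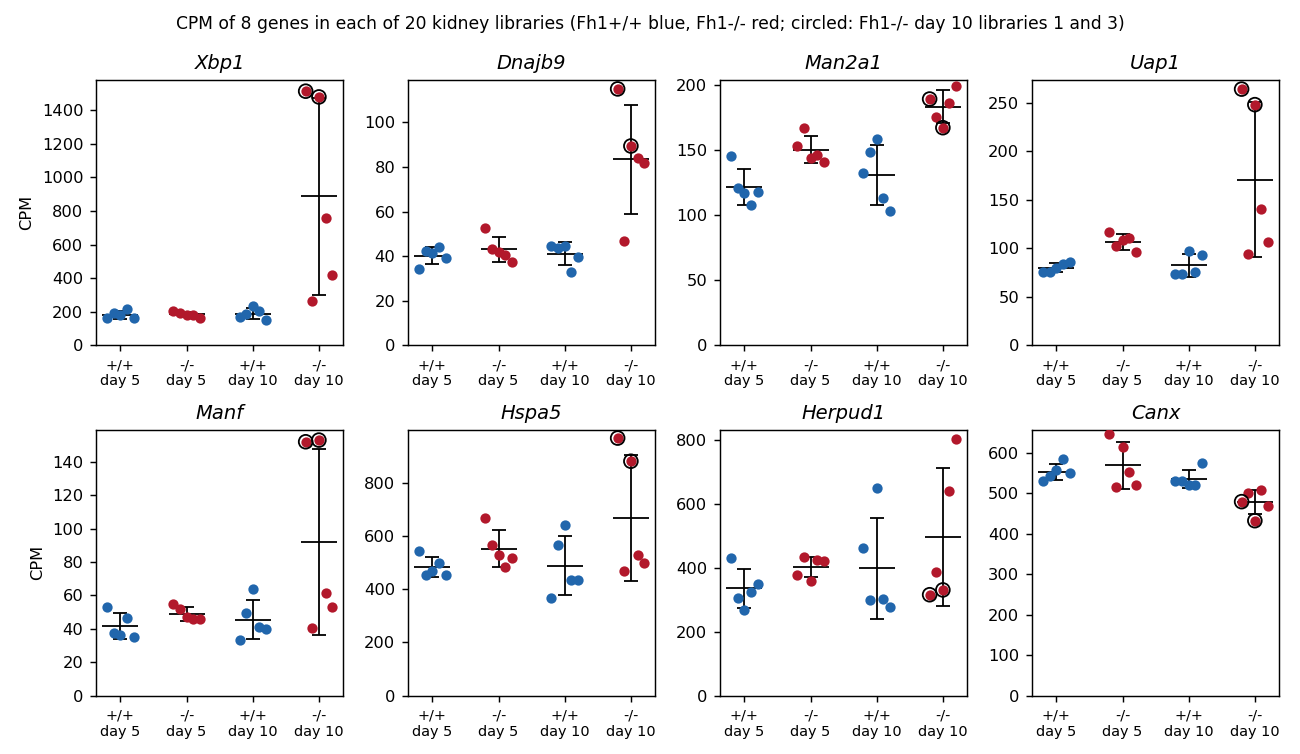
CPM (linear axis from 0) of 8 of the genes in the 20 libraries, with Fh1+/+ in blue, Fh1-/- in red, the mean and SD of each group of 5 in black, and circles around Fh1-/- day 10 libraries 1 and 3. For Xbp1, Uap1, Manf and Hspa5 the circled points are the highest of the plot, for Man2a1 they lie among the others, and for Herpud1 they are the lowest of their group.

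The lectin chaperones hold glycoproteins in the folding cycle. Canx, the membrane-bound calnexin, was at 479, 499.5, 432, 507 and 468 CPM in Fh1-/- and 531, 529, 521, 519 and 575 in Fh1+/+ at day 10, all Fh1-/- libraries being below all controls. The difference was small, with a log2 fold change of -0.18 ± 0.10 and an edgeR adjusted p of 0.268. At day 5 Canx was at 645, 514, 614, 551 and 521 CPM in Fh1-/- and 530.5, 543, 556, 584 and 549 in Fh1+/+, where the Fh1-/- libraries fell on both sides. Calr, the soluble calreticulin, was at 940.3, 596, 922, 694 and 594 CPM in Fh1-/- and 569.9, 706, 811, 658 and 818 in Fh1+/+ at day 10, a log2 fold change of 0.06 ± 0.18 that was -0.18 ± 0.15 without libraries 1 and 3. At day 5 it was at 990, 849.9, 905, 795 and 854 CPM against 851, 698, 741, 790.3 and 713. Of the Fh1-/- libraries, 3 were then above all controls (log2 fold change 0.21 ± 0.09, edgeR adjusted p = 1).

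All 5 disulfide isomerases and related genes had a log2 fold change above 0 at day 10, with a median of 0.11, and 2 of 5 without libraries 1 and 3. Creld2 was at 59.6, 26.5, 59.8, 33.8 and 34.0 CPM in Fh1-/- and 23.9, 24.7, 33.2, 25.2 and 23.8 in Fh1+/+, and only library 2 fell within the control range. Its log2 fold change was 0.69 ± 0.23 (edgeR adjusted p = 0.106). At day 5 it was at 27.7, 35.3, 28.9, 23.4 and 28.7 CPM in Fh1-/- and 30.7, 23.8, 25.8, 32.2 and 25.2 in Fh1+/+, with no separation. Its neighbour Alg12, across the shared promoter stretch printed above, also had libraries 1 and 3 highest and library 2 lowest at day 10. Alg12 was at 21.6, 15.1, 21.6, 18.1 and 17.7 CPM in Fh1-/- and 12.8, 13.2, 15.9, 15.4 and 13.8 in Fh1+/+ (log2 fold change 0.39 ± 0.13, edgeR adjusted p = 0.103). At day 5 it was at 18.8, 16.0, 17.5, 18.4 and 14.2 CPM in Fh1-/- and 14.7, 12.2, 16.4, 15.3 and 16.3 in Fh1+/+, where 3 Fh1-/- libraries were above the controls. P4hb, Pdia3, Pdia4 and Pdia6, the thiol isomerases proper, had log2 fold changes of 0.24, 0.02, 0.02 and 0.11, and of 0.02, -0.27, -0.11 and -0.36 without libraries 1 and 3.

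In ER-associated degradation, Syvn1 and Sel1l form the ubiquitin ligase complex, Herpud1 joins it in the membrane and Edem1 selects clients by their mannose trimming. Syvn1 was at 88.5, 65.1, 99.9, 75.2 and 67.9 CPM in Fh1-/- and 64.0, 52.7, 65.7, 63.2 and 60.7 in Fh1+/+ at day 10, and 4 of 5 Fh1-/- libraries exceeded all controls. Its log2 fold change was 0.36 ± 0.13 (edgeR adjusted p = 0.126). At day 5 Syvn1 was at 69.5, 68.6, 80.5, 76.2 and 63.2 CPM in Fh1-/- and 60.0, 61.3, 69.9, 71.6 and 66.0 in Fh1+/+, with overlap. Herpud1 took another order. It was at 316, 388, 331, 639 and 803 CPM in Fh1-/- at day 10, with libraries 1 and 3 the lowest, and at 462, 301, 650.0, 303 and 278 in Fh1+/+, which spanned most of that range. The log2 fold change was 0.29 ± 0.33, and 0.61 ± 0.33 without libraries 1 and 3 (edgeR adjusted p = 0.569 and 0.34). Herpud1 was at 377, 433, 359.9, 424 and 421 CPM in Fh1-/- at day 5 and at 432, 307, 269, 326 and 351 in Fh1+/+. Sel1l and Edem1 had log2 fold changes of -0.03 and -0.17 at day 10.

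The 5 enzymes of sugar nucleotide synthesis did not move together, with 2 of 5 above 0 at day 10 and a median log2 fold change of -0.02. Uap1 makes UDP-N-acetylglucosamine, the last step of the hexosamine pathway. It was at 264, 93.9, 248, 140.3 and 107 CPM in Fh1-/- and 73.4, 73.2, 97.2, 75.3 and 93.1 in Fh1+/+ at day 10, with library 2 alone inside the control range. The log2 fold change was 1.04 ± 0.29 (edgeR adjusted p = 0.0732), and 0.46 ± 0.15 without libraries 1 and 3 (adjusted p = 0.17). Gfpt1, which commits fructose 6-phosphate to the same pathway, was at 68.7, 67.9, 65.5, 64.6 and 64.6 CPM in Fh1-/- and at 64.1, 72.8, 79.9, 62.9 and 67.8 in Fh1+/+. Its log2 fold change was -0.08 ± 0.09 (edgeR adjusted p = 0.555). Pgm3, a step between them, was at -0.02, with 28.3% of its exon bases shared with Dop1a on the opposite strand.

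Gne and Mpi ran against most of the list in libraries 1 and 3. Gne was at 31.3, 50.7, 29.9, 64.1 and 52.2 CPM in Fh1-/- at day 10, and 45.7, 39.4, 45.0, 38.7 and 38.4 in Fh1+/+, so that libraries 1 and 3 were below and the other 3 above all controls. Mpi, which supplies mannose from fructose, was at 27.6, 51.4, 29.1, 43.5 and 51.2 CPM in Fh1-/- and 52.1, 47.3, 50.1, 46.2 and 45.5 in Fh1+/+. The log2 fold changes of the whole groups were 0.12 ± 0.20 and -0.26 ± 0.18. Both genes were chosen for this split after their values were seen.

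Man2a1 removes mannose from N-glycans in the Golgi. It was at 189, 175, 167, 186 and 199 CPM in Fh1-/- and 132, 148, 158, 113 and 103 in Fh1+/+ at day 10. The genotypes did not overlap, and library 5, not 1 or 3, was the highest. The log2 fold change was 0.47 ± 0.13 (edgeR adjusted p = 0.073), and 0.51 ± 0.15 without libraries 1 and 3 (adjusted p = 0.135). At day 5 it was at 153, 167, 144, 146 and 141 CPM in Fh1-/- and 145, 121, 117, 108 and 118 in Fh1+/+, where Fh1+/+ library 1 overlapped the Fh1-/- group.

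At the entry to the ER, Sec61a1, the pore of the translocon, was at 366, 163, 406, 208 and 176 CPM in Fh1-/- and 165, 154, 173, 173 and 164 in Fh1+/+ at day 10. All but library 2 were above the controls, library 5 narrowly, and the log2 fold change of 0.66 ± 0.26 (edgeR adjusted p = 0.142) was 0.13 ± 0.10 without libraries 1 and 3. At day 5 it was at 164, 155, 191, 164 and 154 CPM in Fh1-/- and 164, 156, 159, 178 and 172 in Fh1+/+. Its small partner Sec61b had a log2 fold change of 0.42 at day 10. All 6 oligosaccharyltransferase subunits were above 0 at day 10, from 0.02 (Stt3b, a catalytic subunit) to 0.43 (Ostc), with a median of 0.17, and 1 of 6 without libraries 1 and 3. Stt3a, the other catalytic subunit, was at 0.22, and the ribophorins Rpn1 and Rpn2 and Ddost were at 0.10, 0.17 and 0.17. The cargo receptor Lman1 and the COPII coat subunit Sec31a, which carry folded proteins out, were at 0.01 and 0.15.

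**Figure D5:**
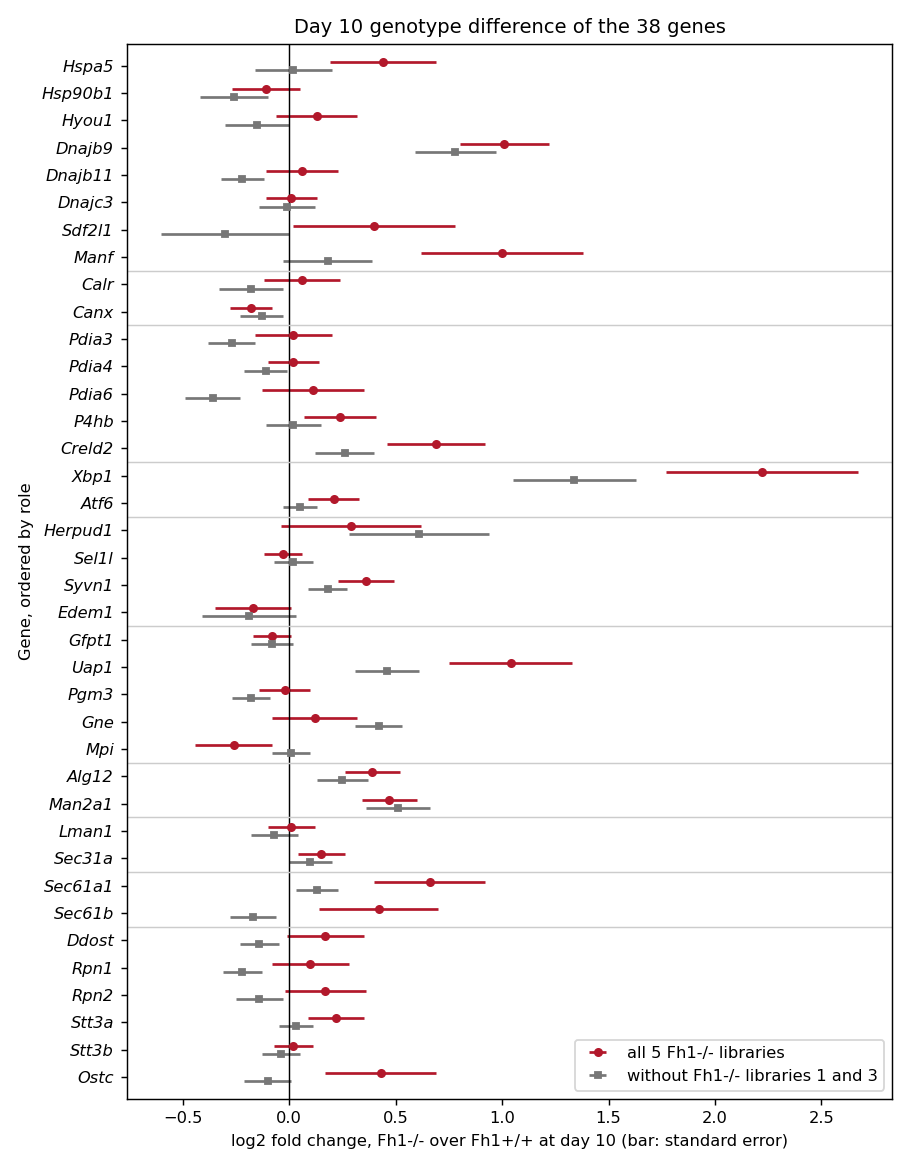
Log2 fold change of Fh1-/- over Fh1+/+ at day 10 for the 38 genes, with standard error bars, from edgeR with all 5 Fh1-/- libraries (red circles) and without libraries 1 and 3 (grey squares). Without them Xbp1 drops from 2.22 to 1.34, Dnajb9 from 1.01 to 0.78 and Manf from 1.00 to 0.18, Man2a1 is at 0.47 and 0.51, and Herpud1 and Gne move up to 0.61 and 0.42.

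The day 10 values were then read by promoter, as a description. The 9 genes with an ER stress element had a median log2 fold change of 0.11, with 7 above 0. The 23 without one had a median of 0.15, with 18 above 0. Herpud1 and Dnajb11, whose windows hold the ER stress element II, were counted among the 23. Xbp1, Dnajb9, Uap1 and Man2a1, the 4 with the smallest day 10 p, were all among the 23. Hspa5, whose window holds the element at 47 to 65 bases before the start, was at 0.44, and Canx, at 127 to 145 bases, at -0.18. Without libraries 1 and 3 the medians were -0.01 and -0.04.

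Day 5 asks what had changed soon after recombination. Uap1 had the smallest p of the 38, ranked 17 among all 14404 genes tested, at 117, 102, 109, 110.5 and 95.7 CPM in Fh1-/- and 75.9, 75.2, 79.5, 83.7 and 85.8 in Fh1+/+. The genotypes did not overlap, and the log2 fold change was 0.41 ± 0.07 (edgeR adjusted p = 0.0763, DESeq2 adjusted p = 3.16e-05). Gfpt1 was likewise separated, at 78.2, 70.4, 75.9, 69.1 and 75.2 CPM in Fh1-/- and 65.3, 63.8, 63.1, 62.3 and 62.0 in Fh1+/+, with a log2 fold change of 0.21 ± 0.05 (edgeR adjusted p = 0.511, DESeq2 0.024). Both belong to the hexosamine pathway, and all 5 sugar nucleotide genes were above 0 at day 5 (0.13 to 0.41). Uap1 lies on chromosome 1 near Fh1, and the part of DNA inherited together with the Fh1 allele in its difference was not tested. Dnajc3, an inhibitor of PERK as well as a co-chaperone, was the third gene without overlap, at 0.13.

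Over the list, 32 of 38 genes had a log2 fold change above 0 at day 5, with a median of 0.09, against -0.01 for all genes. edgeR called 0 of the 38 (0.0347% of all genes) and left 0 at adjusted p under 0.05 (0.0625%), with 4 higher and 1 lower at unadjusted p under 0.05, against 2.42% and 2.37% of all genes. DESeq2 called 0 under the first thresholds, against 0.215% of all genes, and 2 (Uap1 and Gfpt1) at adjusted p under 0.05, against 0.493%. The 3 genes with all Fh1-/- libraries above all controls compare with 0.521% of all genes, and none lay wholly below (0.389% of all genes). Man2a1, at 0.29 ± 0.09, had the third smallest p (edgeR adjusted p = 0.751). By library, Fh1-/- libraries 1 and 3 of day 5 were above all controls for 24 and 17 of the 38 genes (63.2% and 44.7%, against 15.5% and 17.5% of all genes). Libraries 2, 4 and 5 were above for 11, 9 and 6 (28.9%, 23.7% and 15.8%, against 18.1%, 18.0% and 18.9% of all genes). Hepatocyte markers summed to 499, 128, 549.8, 974 and 114 CPM in Fh1-/- libraries 1 to 5 at day 5, against 113 to 204 in Fh1+/+. Libraries 1, 3 and 4 were above that range, and libraries 2 and 5 were inside it. Jchain of plasma cells was at 22.1, 33.0, 8.6, 23.8 and 8.11 CPM against 2.48 to 9.23, with libraries 3 and 5 inside the range. Of the markers tested, 3 of 4 for hepatocytes and 3 of 4 for plasma cells had a log2 fold change above 0. Their part in these values was not tested.

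The change from day 5 to day 10 within each genotype uses the same libraries again, so its values are not independent of those above. In Fh1-/- kidneys 0 of 38 genes were called by edgeR (0.576% of all genes), and 2, Xbp1 and Dnajb9, were higher at day 10 at adjusted p under 0.05 (11.6% of all genes). At unadjusted p under 0.05, 8 were higher and 3 lower, against 17.9% and 14.4% of all genes, and DESeq2 called 2, again Xbp1 and Dnajb9 (9.0% of all genes). Xbp1 was 2.25 ± 0.44 higher on the log2 scale (adjusted p = 0.018) and Dnajb9 0.93 ± 0.20 (adjusted p = 0.0235). The next smallest p was that of Mpi, with all 5 day 10 libraries below all day 5 libraries, at a log2 change of -0.57 ± 0.18 (adjusted p = 0.0645). Without libraries 1 and 3 there were 6 genes at adjusted p under 0.05 (7.26% of all genes), of which Xbp1 was higher and Calr, Dnajb11, Pdia3, Pdia6 and Pgm3 lower at day 10, and the median of the 38 turned from 0.09 to -0.19. Of the single libraries, leaving out Fh1-/- day 10 library 2 gave 8 genes at adjusted p under 0.05 and 2 past the stricter thresholds, leaving out day 10 library 3 or day 5 library 1 gave 1, and leaving out day 5 library 3 or 4 gave 0.

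In Fh1+/+ kidneys, which had the same Cre and tamoxifen, edgeR called 0 of the 38 genes and found 0 at adjusted p under 0.05, as it did for all genes (0 and 0%). At unadjusted p under 0.05 there were also 0 of the 38, and DESeq2 called 0. The median log2 change was -0.02.

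Whether genotype acted differently on the 2 days was tested as an interaction over all 20 libraries and 14934 genes. edgeR called 0 of the 38 (0.0335% of all genes), with 5 higher and 1 lower at unadjusted p under 0.05, against 11.8% and 8.40% of all genes. At adjusted p under 0.05 it found 1, Xbp1 (1.08% of all genes), whose difference of differences was 2.19 ± 0.47 on the log2 scale (adjusted p = 0.0358, and 0.0707 without libraries 1 and 3). DESeq2 called 1, also Xbp1 (1.82% of all genes). Dnajb9 came next at 0.90 ± 0.24 (edgeR adjusted p = 0.0648), and Gfpt1 had the smallest p in the other direction, at -0.31 ± 0.10 (adjusted p = 0.107). Uap1 gave 0.62 ± 0.31 (adjusted p = 0.272). Without Fh1-/- day 10 library 2 there were 3 genes at adjusted p under 0.05 and 2 past the stricter thresholds, without library 5 there were 2, and leaving out any of 14 other single libraries gave 0.

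A further list of 116 genes of the same pathways was set beside the 38, and 114 of them were tested at day 10. edgeR left 0 of these at adjusted p under 0.05, against 2.83% of all genes. At unadjusted p under 0.05, 22 were higher and 3 lower, against 15.1% and 11.9% of all genes. DESeq2 called 7, against 5.54% of all genes. The median log2 fold change was 0.16, and 0.01 without libraries 1 and 3. The smallest p values were those of Pmm1, which makes mannose 1-phosphate (0.58 ± 0.14), Chac1, a glutathione-degrading enzyme induced by ATF4 (2.82 ± 0.72), Atf4, the factor downstream of PERK (0.83 ± 0.21), and Sec24d, a cargo-binding COPII subunit (0.87 ± 0.23), with edgeR adjusted p of 0.0604, 0.0624, 0.064 and 0.0642. Of the 15 unfolded protein response genes, 12 were above 0, with a median of 0.28, and 11 without libraries 1 and 3, with a median of 0.22.

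Chac1 had another order of libraries than Xbp1. It was at 7.97, 0.731, 7.04, 31.2 and 14.3 CPM in Fh1-/- libraries 1 to 5 at day 10, against 0.893 to 2.19 in Fh1+/+, so library 4 was the highest and library 2 lay below every control. Trib3, another ATF4 target, was at 14.3, 2.48, 17.1, 2.69 and 1.93 CPM, against 1.12 to 1.87, highest in libraries 1 and 3. Atf4 itself was at 221, 100, 226, 155 and 130.3 CPM, against 83.5 to 103. At day 5 the smallest p values of the further list were those of Sec11c, a signal peptidase subunit (0.20), and Ero1l, the oxidase of disulfide isomerases (0.24), with edgeR adjusted p of 0.866 and 0.881.

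Markers of other cell types were read in the same libraries, since secretory cells of other kinds are rich in these genes. Of 7 plasma cell markers 5 were in the table, and their sum was 150.1, 28.7, 165, 21.7 and 54.1 CPM in Fh1-/- at day 10, against 23.5 to 38.4 in Fh1+/+. Of the 4 tested, 3 had a log2 fold change above 0 (median 0.91, and 0.61 without libraries 1 and 3), 2 were higher at unadjusted p under 0.05 in edgeR (Derl3 at 1.51, itself an ER degradation gene, and Sdc1 at 1.90) and 0 at adjusted p under 0.05. In libraries 1 and 3 the sum was nearly all Sdc1 (143 and 158 CPM), a gene also made by epithelia. Jchain, the defining one, was at 4.78, 5.57, 3.27, 4.54 and 30.5 CPM, against 6.81 to 17.5 in Fh1+/+, so 4 libraries were below the controls and library 5 above them. Pancreatic acinar markers summed to 1.28 to 2.14 CPM in that group, with Prss2, Cpa1 and Pnlip at 0. Hepatocyte markers summed to 117 to 347 CPM, against 77.1 to 256.

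Leukocyte markers (7 of 7 in the table) summed to 62.2, 83.6, 65.0, 56.0 and 111 CPM in Fh1-/- at day 10, all below the 116 to 131 of Fh1+/+. Of the 5 that were tested, 4 had a log2 fold change below 0 and 1 was above it, at 1.4. Their median was -1.1, and -0.56 without libraries 1 and 3, where all 5 were below 0. Fibroblast and pericyte markers summed to 69.3, 209.6, 70.8, 81.8 and 101 CPM, against 146 to 360.5, so that only library 2 reached the control range, with 4 of 4 genes below 0 (median log2 fold change -1.54, and -1.11 without libraries 1 and 3). Endothelial markers summed to 59.5, 192, 57.3, 196 and 252 CPM, against 212 to 396, and podocyte markers to 89.3, 242, 82.9, 317 and 323 CPM, against 219 to 439.8. The part of plasma cell, leukocyte, stromal, endothelial and podocyte RNA in the values of the 38 genes was not tested. The part of the tubule injury and proximal tubule levels in the values of the 38 genes was not tested.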

How the data were processed

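RNA of mouse kidney was sequenced in 20 libraries, 5 for each genotype and day. According to the study's methods, the authors trimmed adapters with Cutadapt, aligned to the GRCm38 build using STAR 2.6.0c, dropped alignments of low quality and summarised them by gene in Rsubread. What was deposited is a table of raw counts by gene symbol, without normalization. The sources used here do not say whether counting used strand (not given). Without strand, overlapping genes on opposite strands cannot be told apart. Library totals ranged from 16654829 to 25001294 counts, which sets the counting error.

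From the counts, low genes were removed with filterByExpr and the rest was tested with edgeR 4.0.16 (TMM factors, quasi-likelihood test) in R 4.3.3, with Benjamini-Hochberg adjustment over all genes tested. A gene was called at an adjusted p under 0.01 and an absolute log2 fold change over 0.58. Each genotype comparison and each day change used only its own 10 libraries, and the interaction used all 20. CPM values use TMM factors, and levels per kilobase use summed exon lengths. Genotypes and days are those of the labels. Alternatives were RLE size factors, DESeq2 1.42.0, limma 3.58.1 (voom with quality weights), other filters and thresholds, a replicate block, a covariate for Y-linked transcripts, 1 fit of all libraries and leaving out each library. All 38 genes passed the filter in every comparison. Scripts were tested on simulated counts.

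All 38 genes are counted by role. Those named by rule with every library's value are the 12 with the smallest edgeR p at day 10, the 4 at day 5, the 2 in the interaction, and Hspa5, Xbp1, Atf6 and Herpud1. Outside that rule, Gne and Mpi are given with their day 10 values, chosen after these were seen. The members and all lists were chosen with earlier results of these data known. A planned count of ER retention signals in the proteins was not run.

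The replicate numbers of the labels were not used to pair the libraries, since the deviations of same-numbered libraries correlated between -0.51 and 0.33 over 20 pairs. With 5 libraries per group, this check cannot show whether equal numbers mark a litter or a collection day. No pair of replicates was the same library deposited again, since their counts differed by 7.87 to 399 times the sampling variance in all 40 pairs.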

Additional observations from a re-analysis of the deposited data

Results flagged for a closer look

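In 152 sets of 5 libraries (38 genes in 4 groups), 7 held 1 library that stood apart from the other 4 by more than Dixon's 95% critical value of 0.71, where about 7.6 such sets are expected, since chance marks about 1 in 20. Sdf2l1, a BiP cofactor, was at 13.2 CPM in Fh1+/+ day 5 library 1, against 7.22 to 8.46 in the other 4. Stt3a was at 134 CPM in Fh1+/+ day 5 library 3, against 128 to 129. Canx was at 575 CPM in Fh1+/+ day 10 library 5, against 519 to 531, and Creld2 at 33.2 CPM in Fh1+/+ day 10 library 3, against 23.8 to 25.2. Pdia3 was at 604 CPM in Fh1-/- day 5 library 1, against 517 to 534, and Sec61a1 at 191 CPM in Fh1-/- day 5 library 3, against 154 to 164. Sec31a was at 234 CPM in Fh1-/- day 10 library 3, against 186 to 199.

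The genotype difference of Xbp1 was larger at day 10 than at day 5 by 2.19 on the log2 scale in the edgeR interaction test over all 20 libraries (adjusted p = 0.0358).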

How the results depend on the processing

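For the 38 genes, no gene was called in the day 5 comparison or the Fh1+/+ day change under any alternative, and 154 of the counts stayed within 1.5 times their value in the edgeR fit while 65 moved further. At day 10 the 0 calls became 2 at adjusted p under 0.05 with no fold threshold, 3 with DESeq2, 3 with 1 fit of all libraries, 2 with DESeq2 without libraries 1 and 3 (an alternative chosen after seeing the data) and 0 to 2 when 1 library was left out. In the Fh1-/- day change they became 2, 2, 2 and 2 under the same 4 alternatives, 1 with voom and 0 to 2 without 1 library. In the interaction they became 1 at adjusted p under 0.05, 1 with DESeq2, 1 with DESeq2 without libraries 1 and 3, and 0 to 2 without 1 library.

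At adjusted p under 0.05, the 2 genes of day 10 became 6 with DESeq2, against 1273 higher and 847 lower of all 14360 genes. They became 9 with 1 fit of all libraries and 0 without libraries 1 and 3 (0.481% of all genes). With DESeq2 without those libraries they became 6, and without 1 library 0 to 6. The 0 of day 5 became 2 with DESeq2 (0.493% of all genes), 1 with voom and 1 with the Y-linked covariate. The 2 of the Fh1-/- day change (11.6% of all genes in edgeR) became 7 with DESeq2, against 1847 higher and 1468 lower of all 14235 genes. They became 7 with voom and 9 with 1 fit of all libraries. They became 6 without libraries 1 and 3 (7.26% of all genes), 15 with DESeq2 without them, and 0 to 8 without 1 library. The 1 of the interaction (1.08% of all genes in edgeR) became 3 with DESeq2, against 593 higher and 289 lower of all 14934 genes. It became 2 with the Y-linked covariate, 0 without libraries 1 and 3, 2 with DESeq2 without them, and 0 to 3 without 1 library. With the replicate block these counts were 0 at day 10, 0 in the Fh1-/- day change and 0 in the interaction, and 1 of 20 libraries correlated best with its own number. Over all genes, 8 calls of edgeR at day 10 stood against 796 of DESeq2. The cause of these differences was not tested. Counts printed in this section without a share of all genes do not by themselves show whether these genes moved more than others.

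Calr at day 10, at 0.06 with all libraries and between -0.03 and 0.14 without 1 library, reversed to -0.07 with voom, -0.18 without libraries 1 and 3, -0.19 with DESeq2 without them, -0.03 without Fh1-/- library 1, -0.02 without Fh1-/- library 3 and -0.01 without Fh1+/+ library 1. With only the bases before the start searched, the ER stress element II was found in 1 gene in place of 2.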

Other observations

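Y-linked transcripts were absent from 8 libraries (3 of 5 in Fh1-/- and 2 of 5 in Fh1+/+ at day 10, 2 of 5 and 1 of 5 at day 5) and present in 12. Of the 38 genes, 0 were separated between these libraries in all 4 groups. In 3 of 4 groups, Canx and Edem1 were lower in every library without them than in every library with them. Dnajc3, Lman1, Ostc and Sdf2l1 were higher in 3 of 4 groups. In both Fh1+/+ groups but neither Fh1-/- group, Gfpt1, Hsp90b1, Hspa5, Man2a1 and Manf were higher in the libraries without them and Rpn2 was lower. The count was made after the values of Edem1 were seen. With only 1 to 3 libraries per group without these transcripts, such separation arises easily, and its share of all genes is not given here. Edem1, which selects misfolded glycoproteins for degradation, was at 84.1 to 114 CPM in the 8 libraries and at 109 to 169.6 CPM in the 12, with overlap in Fh1-/- at day 10.

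In the further pathway list, the trimming and Golgi enzymes lay on the other side from most lists at day 10, with 4 of 11 above 0 and a median log2 fold change of -0.14, and -0.11 without libraries 1 and 3. The translocon and signal peptidase genes had 12 of 13 above 0 and a median of 0.36, and 6 of 13 and -0.01 without those libraries.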
